A study of Capra hircus with 6 samples.

Results

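The genes described here are those of cholesterol synthesis, of fatty acid synthesis and of their common control by sterol regulatory element-binding proteins (SREBPs), measured by RNA-seq in goat intramuscular preadipocytes. They were taken as the rows of the deposited expression table whose gene name was one of 30 listed symbols, and their read counts were taken by the same Ensembl identifier. A row of that name was found for 27 of the 30, out of 27271 genes in the table: 16 of 18 for cholesterol synthesis, 4 of 5 for SREBP control, 5 of 5 for de novo lipogenesis and 2 of 2 other SREBP targets. EBP, ACAT2 and SREBF1 had no row under these names. Of the 27 genes, 13 had enough reads to be tested, and 6574 genes were tested in all.

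Cholesterol is built from acetyl-CoA through the mevalonate pathway, which yields isoprenoid units that are condensed to farnesyl diphosphate and squalene and then closed and trimmed to the sterol ring. The membrane-bound SREBPs switch on most genes of this pathway and of fatty acid synthesis when the escort protein SCAP carries them from the endoplasmic reticulum to the Golgi, and the INSIG proteins hold SCAP back when sterols are plentiful. In cells of the fat lineage, fatty acids made by ACLY, ACACA and FASN are one source of the triglyceride that fills lipid droplets.

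The cells were primary preadipocytes from the longissimus dorsi of Jianzhou goats 3 days old, and all libraries came from cells induced towards adipocytes with 50 µmol/L oleic acid for 48 h. The NC group (3 libraries, genotype WT) received a negative control interfering RNA, and the Si-LIPG group (3 libraries, LIPG knock down) an interfering RNA against LIPG, the gene of endothelial lipase; the comparison asks what silencing LIPG does to the transcripts of these cells. Knockdown by interfering RNA is transient and partial, and the cells are a primary mixture and not a clone. The labels do not say that the libraries of a group came from separate animals or cultures, while the study's methods call its replicates biological without saying how they were made, so p-values measure the spread between these libraries, part of which may be technical. In bulk RNA, fewer cells of a type and less RNA per cell cannot be told apart.

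The libraries have properties that bear on every value below. Only 0.997% to 1.53% of all reads in NC and 1.80% to 2.88% in Si-LIPG were counted on genes (524776 to 703680 and 864882 to 1051230 reads), while 91.6% to 93.7% were assigned to no feature. The sign and size of a change therefore depend on the scaling: the median log2 fold change of all tested genes was 0.16 with TMM normalization (trimmed mean of M values, which gives NC 1 the lowest factor, 0.601), 0.74 when scaled to the reads on genes, and 1.58 when scaled to all reads. The library kit keeps strand, and the strand setting of the counting is not given in the sources used here. ND6, the mitochondrial gene transcribed from the opposite strand, had 54.3 to 99.3 times the count per kb of the median of 12 other mitochondrial protein genes in NC and 22.6 to 49.8 times in Si-LIPG, so the counts may hold reads from the opposite strand of a gene, and may come mainly from that strand if the setting was the opposite of the kit. Every value below depends on this setting, and its part in them was not tested. LIPG itself was counted 0, 2 and 0 times in NC and 0, 2 and 2 times in Si-LIPG, too few reads to show a change or to check the labels by it. As to cell type, 10 of the 11 stromal markers with a row were tested, and the summed level of the 11 was 22250 to 30190 TMM-normalized CPM (the count scaled to a fixed library total) in NC and 31370 to 37700 in Si-LIPG, with DLK1 at 0. The 7 adipocyte markers summed to 16.2 to 41.4 CPM in NC and 16.1 to 34.2 in Si-LIPG.

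With edgeR's quasi-likelihood test and Benjamini-Hochberg adjustment over all tested genes, 1 of the 13 tested genes had an adjusted p under 0.05: IDI1, which was lower in Si-LIPG. The background was 6.51% of all tested genes, 5.54% lower and 0.974% higher. The study's results give a criterion of p under 0.05 with a fold change over 1.5, taken here as unadjusted p. Under it IDI1 and ACLY qualified, against 20.7% of all tested genes. ACLY was the 1 of 13 that was higher, against 7.83%, and IDI1 the 1 that was lower, against 12.9%. The DESeq2 test, run on 14848 genes, also called IDI1 alone of the 27 (log2 fold change -1.67, DESeq2 adjusted p = 0.000824), against 4.01% of its genes. The other 11 genes had unadjusted p-values of 0.0641 or more. The log2 fold change was above 0 for 11 of the 13 genes, against 58.4% of all tested genes, but the count filter shaped this number. HMGCS1, MVD, FDFT1, CYP51A1, NSDHL, SCAP, SREBF2 and ME1 reached the filter in all Si-LIPG libraries and not in all NC libraries, and of all genes admitted in that way 86.5% were above 0. Of the 5 genes that reached it in both groups, ACLY, FASN and ACACA were above 0 and IDI1 and FDPS below, against 48.3% above 0 of all genes admitted by both groups. Apart from IDI1 the log2 fold changes ran from -0.10 to 1.12. The values of the groups did not overlap in TMM-normalized CPM for 6 of the 13 genes (46.2%, against 28.7% of all tested genes). Of these, HMGCS1, MVD, SREBF2, ACACA and ACLY were higher in every Si-LIPG library, HMGCS1, MVD and SREBF2 being among those admitted through Si-LIPG, and IDI1 was lower in every one.

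**Figure D1:**
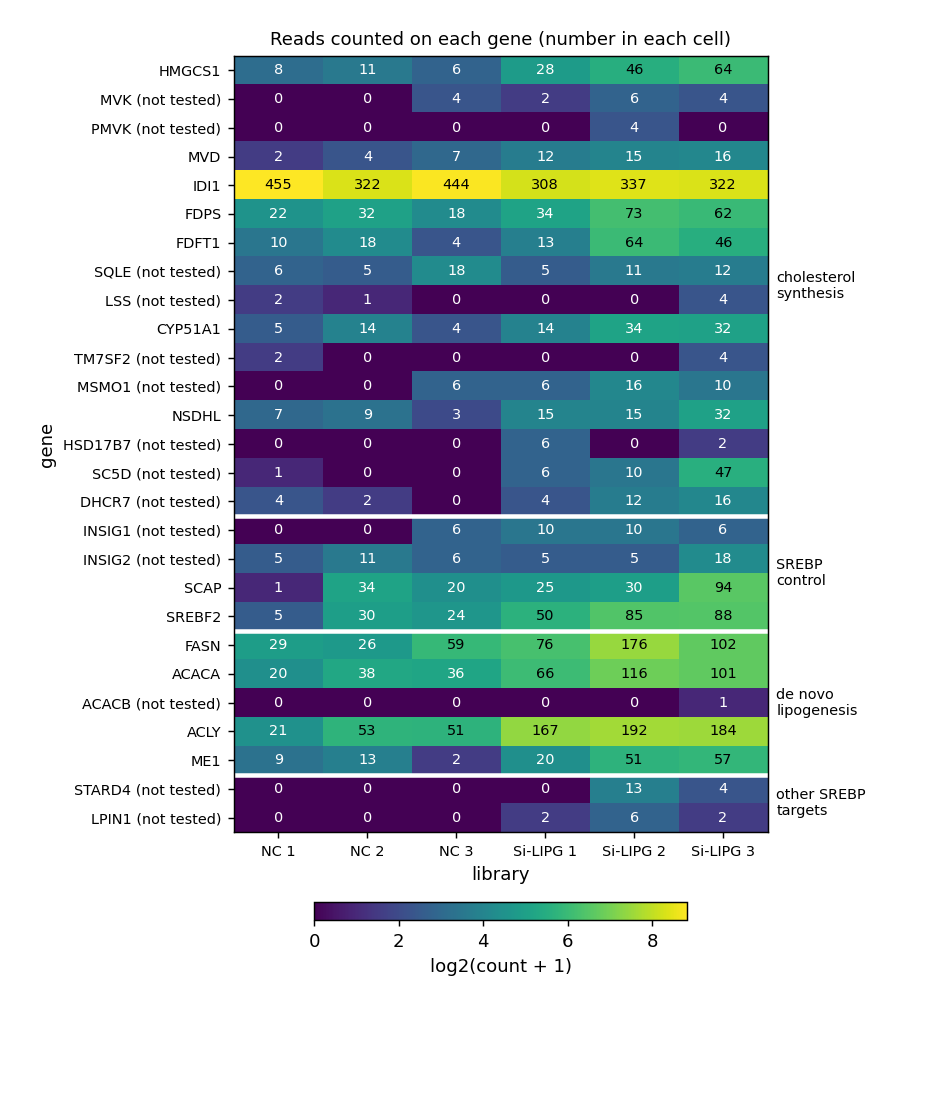
Reads counted on each of the 27 genes (vertical axis, grouped by role) in each of the 6 libraries (horizontal axis), with the count printed in each cell and its log2(count + 1) as the colour. IDI1 holds 308 to 455 reads in every library, while 5 genes are at 0 in all NC libraries.

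Among the cholesterol synthesis genes, IDI1 (isopentenyl-diphosphate isomerase, which balances the isoprenoid building blocks) was the 1 gene that passed the adjusted test. IDI1 (ENSCHIG00000023940) was counted 455, 322 and 444 times in NC 1 to 3 and 308, 337 and 322 times in Si-LIPG 1 to 3. In TMM-normalized CPM these were 1475, 580 and 700 in NC and 348, 275 and 235 in Si-LIPG, or 918 ± 486 against 286 ± 57.0 (SD, n = 3 each). Every NC library was above every Si-LIPG library, and NC 1 was the highest.

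IDI1 fell by 1.68 on the log2 scale (SE 0.38, edgeR quasi-likelihood adjusted p = 0.0395), at rank 72 by p of the tested genes. The fall depended on the scaling. In CPM of all reads, counted on genes or not, IDI1 was 8.64, 7.56 and 9.64 in NC and 6.41, 9.02 and 8.83 in Si-LIPG, and the groups overlapped. On that scale the log2 fold change was -0.09 (edgeR adjusted p = 0.816), and on the reads counted on genes it was -0.99 (edgeR adjusted p = 0.0722). Its log2 fold change minus the median of all tested genes was -1.84 (TMM), -1.73 (reads on genes) and -1.675 (all reads). With the percentage of reads on genes as covariate its log2 fold change was -0.38 (edgeR adjusted p = 0.998), a fit in which no gene was called and 187 had an unadjusted p under 0.05. Without NC 1 the log2 fold change was -1.18 (edgeR adjusted p = 0.0771), without NC 2 -1.91 (0.0594), without Si-LIPG 2 -1.61 (0.240) and without Si-LIPG 3 -1.51 (0.253), so the call was lost in 4 of the 6 fits that left out a library.

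A ratio of counts within a library does not depend on any scaling. IDI1 had 20.7, 10.1 and 24.7 times the count of FDPS in NC and 9.06, 4.62 and 5.19 times in Si-LIPG. The groups did not overlap, and the ratio was lower in Si-LIPG. FDPS (farnesyl diphosphate synthase), the enzyme that uses the product of IDI1, was chosen for this ratio after the values were seen, so the ratio is a description. IDI1 also made up 86.8%, 77.0% and 86.4% of all counts of the 16 cholesterol synthesis genes in NC and 68.0%, 52.4% and 47.85% in Si-LIPG.

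**Figure D2:**
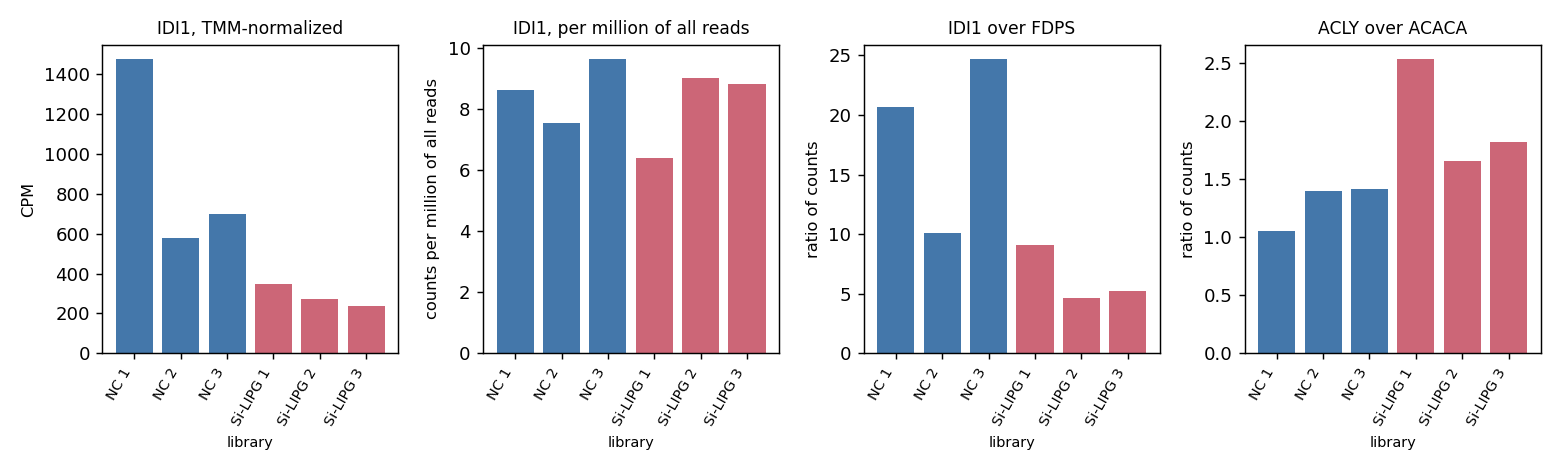
Each bar is 1 library, NC in blue and Si-LIPG in red: IDI1 in TMM-normalized CPM, IDI1 in CPM of all reads, the ratio of IDI1 to FDPS counts, and the ratio of ACLY to ACACA counts. IDI1 is lower in every Si-LIPG library in TMM-normalized CPM and in its ratio to FDPS and overlaps in CPM of all reads (6.41 to 9.64), and ACLY over ACACA is higher in every Si-LIPG library (1.66 to 2.53 against 1.05 to 1.42).

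The remaining cholesterol synthesis genes had few reads, and none of the other 6 tested passed the edgeR test. HMGCS1 (ENSCHIG00000015096), the synthase that makes HMG-CoA ahead of the mevalonate step, was counted 8, 11 and 6 times in NC and 28, 46 and 64 times in Si-LIPG. Its TMM-normalized CPM was 18.4 ± 8.33 in NC and 38.6 ± 7.64 in Si-LIPG (SD, n = 3 each), with every Si-LIPG library above every NC library. The log2 fold change was 1.12 (SE 0.56), the highest of the 13 genes, and did not pass the edgeR test (adjusted p = 0.275). HMGCS1 came through the count filter by its Si-LIPG libraries, as 8 of the 13 genes did, which bears on this rank. When scaled to all reads HMGCS1 was called higher (log2 fold change 2.71, edgeR adjusted p = 0.0462, in a fit that called 11.4% of all tested genes, all of them higher in Si-LIPG). Without NC 1 it met the criterion on unadjusted p and fold change (log2 fold change 1.39, edgeR adjusted p = 0.224). Within libraries, HMGCS1 had 0.364, 0.344 and 0.333 times the count of FDPS in NC and 0.824, 0.630 and 1.03 times in Si-LIPG, again without overlap and again a ratio chosen after the values were seen.

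FDPS itself was counted 22, 32 and 18 times in NC and 34, 73 and 62 times in Si-LIPG. In TMM-normalized CPM it was 52.4 ± 21.9 in NC and 47.7 ± 10.8 in Si-LIPG (SD, n = 3 each). The FDPS groups overlapped, with a log2 fold change of -0.10 (SE 0.45, edgeR adjusted p = 0.933). Its direction turned with the scaling, to 0.55 on the reads on genes and 1.48 on all reads, both below the median of all tested genes.

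The mevalonate enzyme MVD (mevalonate diphosphate decarboxylase) was counted 2, 4 and 7 times in NC and 12, 15 and 16 times in Si-LIPG. Its CPM was 6.48 to 11.0 in NC and 11.7 to 13.5 in Si-LIPG, so the groups were separate but close, and the log2 fold change was 0.56 (SE 0.84, edgeR adjusted p = 0.772). FDFT1 (squalene synthase, the first step committed to sterols) was counted 10, 18 and 4 times in NC and 13, 64 and 46 times in Si-LIPG. The groups of FDFT1 overlapped, with a log2 fold change of 0.55 (SE 0.67, edgeR adjusted p = 0.707). When 1 library was left out, FDFT1 ranged from 0.058 (without NC 3) to 0.95 (without NC 2). CYP51A1 (lanosterol demethylase) and NSDHL (a sterol dehydrogenase of the same stretch) gave log2 fold changes of 0.50 (SE 0.69) and 0.34 (SE 0.77), and neither passed the edgeR test (adjusted p = 0.744 and 0.859). Leaving out 1 library moved CYP51A1 from 0.080 (without NC 3) to 1.09 (without NC 2). NSDHL turned direction, at -0.12 without NC 3 and up to 0.74 without NC 1.

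The other cholesterol synthesis genes did not have enough reads for the test. SQLE (squalene epoxidase, an oxygen-dependent control step) was counted 6, 5 and 18 times in NC and 5, 11 and 12 times in Si-LIPG. In TMM-normalized CPM the SQLE groups lay side by side without overlap, 9.01 to 28.4 in NC and 5.64 to 8.96 in Si-LIPG. In CPM of all reads they overlapped. SC5D (a desaturase late in the pathway) was counted 1, 0 and 0 times in NC and 6, 10 and 47 times in Si-LIPG, higher in every Si-LIPG library. Pooled over each group on TMM-scaled library sizes, the SC5D ratio of Si-LIPG to NC was 27.1, with a 95% interval of 4.69 to 1090 that covers counting error only. Si-LIPG 3 held 47 of the 63 Si-LIPG counts, and without it the ratio was 11.3 (1.76 to 476). In a fit with no filter on low counts its edgeR adjusted p was 0.0632.

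MSMO1 (a sterol methyl oxidase) was counted 0, 0 and 6 times in NC and 6, 16 and 10 times in Si-LIPG, and DHCR7 (the reductase of the last step to cholesterol) 4, 2 and 0 times and 4, 12 and 16 times. MVK and PMVK, the kinases of mevalonate, had at most 6 counts in a library, as did LSS (lanosterol synthase), TM7SF2 and HSD17B7. HSD17B7 and PMVK were at 0 in all NC libraries. Against a floor of 3 counts over the NC group (2.0 CPM on the TMM scale), HSD17B7 in Si-LIPG was 1.15 times the floor. Without Si-LIPG 1 it was not above the floor. The Si-LIPG counts were taken as exact, so this is not a lower limit of the fold. In a fit with no filter on low counts the edgeR adjusted p of HSD17B7 was 0.527. PMVK, with 4 counts in 1 Si-LIPG library, gave no fold above the floor. The ratios of TM7SF2 and LSS, 0.860 and 0.574 on the same scale, had 95% counting intervals of 0.123 to 9.51 and 0.097 to 3.92. For each gene the 4 Si-LIPG counts were all in Si-LIPG 3, and without that library both ratios were 0 (upper limits 3.77 and 1.72).

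Summed over the 16 cholesterol synthesis genes, the TMM-normalized CPM was 1699, 753 and 810 in NC and 511, 524 and 492 in Si-LIPG, lower in every Si-LIPG library. Without IDI1, the other 15 genes summed to 224, 173 and 110 in NC and 164, 249 and 256 in Si-LIPG. On the TMM scale the groups were separate with IDI1 in the sum and overlapped once it was taken out. In CPM of all reads it was the other way round: the 16 genes summed to 9.82 to 11.2 in NC and 9.43 to 18.5 in Si-LIPG, with overlap, and the 15 genes without IDI1 to 1.31 to 2.26 and 3.02 to 9.63, higher in every Si-LIPG library.

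**Figure D3:**
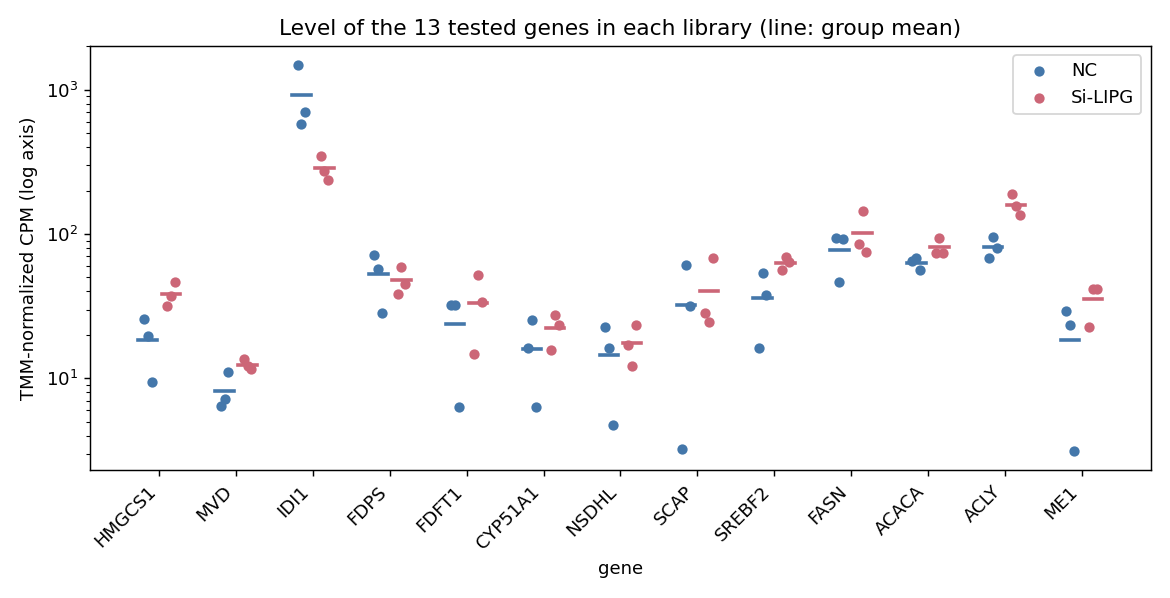
TMM-normalized CPM (log axis) of the 13 tested genes along the horizontal axis, 1 point per library and a line at each group mean, NC in blue and Si-LIPG in red. CPM is not per length, so heights compare groups within a gene: IDI1 is lower in Si-LIPG (918 to 286), and ACLY is higher (81.3 to 160).

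Of the SREBP control genes, SREBF2 (ENSCHIG00000020010), the SREBP that acts mainly on cholesterol synthesis, was counted 5, 30 and 24 times in NC and 50, 85 and 88 times in Si-LIPG. Its TMM-normalized CPM was 36.0 ± 19.0 in NC and 63.3 ± 6.47 in Si-LIPG (SD, n = 3 each). The highest NC library, 54.0, lay just under the lowest Si-LIPG library, 56.4, in a gene that came through the count filter by its Si-LIPG libraries. The log2 fold change of SREBF2 was 0.76 (SE 0.45) and did not pass the edgeR test (adjusted p = 0.366); it was 0.45 without NC 1, -0.01 with the percentage of reads on genes as covariate, and 1.15 without NC 2, where it met the criterion on unadjusted p and fold change (edgeR adjusted p = 0.212).

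SCAP, the escort of the SREBPs, was counted 1, 34 and 20 times in NC and 25, 30 and 94 times in Si-LIPG. SCAP varied more within each group than between them: 32.0 ± 29.0 CPM in NC and 40.4 ± 24.5 in Si-LIPG (SD, n = 3 each), with a log2 fold change of 0.27 (SE 0.66, edgeR adjusted p = 0.865). Its direction turned in 3 fits, to -0.20 without NC 1, -0.35 without Si-LIPG 3 and -1.625 with the percentage of reads on genes as covariate.

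INSIG1, an SREBP target that closes the feedback loop, was counted 0, 0 and 6 times in NC and 10, 10 and 6 times in Si-LIPG. Its relative INSIG2, which also holds SCAP in the endoplasmic reticulum, was counted 5, 11 and 6 times in NC and 5, 5 and 18 times in Si-LIPG. Neither INSIG gene had enough reads for the test, and the groups of both overlapped in TMM-normalized CPM. In CPM of all reads INSIG1 was higher in every Si-LIPG library (0 to 0.130 in NC and 0.165 to 0.268 in Si-LIPG), while the INSIG2 groups overlapped. A row for SREBF1, the SREBP of lipogenesis, was not found by name. A row described as a sheep SREBP-1 protein (ENSCHIG00000024925), which lay outside the choice by name, was counted 0, 0 and 2 times in NC and 0, 3 and 0 times in Si-LIPG.

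The 4 tested genes of de novo lipogenesis had log2 fold changes from 0.36 to 1.01, and ACLY had the lowest p of them. ACLY (ENSCHIG00000023185), ATP citrate lyase, turns citrate exported from mitochondria into the acetyl-CoA that feeds both fatty acids and sterols. It was counted 21, 53 and 51 times in NC and 167, 192 and 184 times in Si-LIPG. In TMM-normalized CPM ACLY was 68.1, 95.5 and 80.4 in NC and 188, 156 and 134 in Si-LIPG, or 81.3 ± 13.7 against 160 ± 27.2 (SD, n = 3 each), and every Si-LIPG library was above every NC library.

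The log2 fold change of ACLY was 0.96 (SE 0.33, 1.95-fold), with an unadjusted p of 0.0105 in the edgeR fit over 6574 genes. It met the criterion on unadjusted p and fold change but not the adjusted threshold (edgeR adjusted p = 0.0942); with the filter raised to 10 counts in each library, which left 2757 genes, it passed (edgeR adjusted p = 0.0127), in a fit that called 25.9% of its genes. ACLY lay above the median of all tested genes by 0.80 with TMM, by 0.77 on the reads on genes, by 0.73 on all reads and by 1.13 with the percentage of reads on genes as covariate (log2). Scaled to all reads it was called higher (log2 fold change 2.31, edgeR adjusted p = 0.0462). Leaving out 1 library at a time gave 0.77 to 1.10, and without Si-LIPG 1 the gene no longer met the criterion (unadjusted p = 0.0645 in that edgeR fit).

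FASN, the synthase that builds palmitate, was counted 29, 26 and 59 times in NC and 76, 176 and 102 times in Si-LIPG. Its TMM-normalized CPM was 77.9 ± 27.0 in NC and 101 ± 37.0 in Si-LIPG (SD, n = 3 each). The FASN groups overlapped, with a log2 fold change of 0.39 (SE 0.40, edgeR adjusted p = 0.652). When 1 library was left out, this ranged from 0.068 (without Si-LIPG 2) to 0.59 (without Si-LIPG 3). In CPM of all reads FASN was higher in every Si-LIPG library (0.551 to 1.28 in NC and 1.58 to 4.71 in Si-LIPG). ACACA, the carboxylase that makes malonyl-CoA for FASN, was counted 20, 38 and 36 times in NC and 66, 116 and 101 times in Si-LIPG. In CPM it was 63.3 ± 5.999 in NC and 80.9 ± 11.8 in Si-LIPG (SD, n = 3 each), higher in every Si-LIPG library, with a log2 fold change of 0.36 (SE 0.35, edgeR adjusted p = 0.637).

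ME1, malic enzyme, which supplies NADPH for fatty acid synthesis, was counted 9, 13 and 2 times in NC and 20, 51 and 57 times in Si-LIPG. Its log2 fold change of 1.01 (SE 0.68) came next to that of HMGCS1, and it did not pass the edgeR test (adjusted p = 0.445). Both genes were admitted by the count filter through Si-LIPG. The log2 fold change of ME1 ranged from 0.45 (without NC 3) to 1.42 (without NC 1) when 1 library was left out. The ME1 groups overlapped in TMM-normalized CPM, while in CPM of all reads every Si-LIPG library was above NC. ACACB, the mitochondrial relative of ACACA that makes malonyl-CoA for the control of fatty acid oxidation, had 1 read in all 6 libraries.

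Within libraries, ACLY had 1.05, 1.395 and 1.42 times the count of ACACA in NC and 2.53, 1.66 and 1.82 times in Si-LIPG, with no overlap of the groups. The ratios of ACLY to FASN (0.724 to 2.04 in NC, 1.09 to 2.20 in Si-LIPG) and of ACACA to FASN (0.610 to 1.46 and 0.659 to 0.990) overlapped. These pairs were chosen after the values were seen. The 5 lipogenic genes summed to 256, 234 and 233 CPM in NC and 371, 436 and 325 in Si-LIPG, or 241 ± 12.97 against 377 ± 55.7 (SD, n = 3 each). The sum was higher in every Si-LIPG library, but without ACLY the other 4 genes summed to 188, 139 and 153 in NC and 183, 279.5 and 191 in Si-LIPG, and the groups overlapped. In CPM of all reads these 4 genes were higher in every Si-LIPG library (1.10 to 2.11 in NC and 3.37 to 9.18 in Si-LIPG). All 27 genes together summed to 1991, 1122 and 1132 TMM-normalized CPM in NC and 986, 1081 and 971.5 in Si-LIPG, lower in every Si-LIPG library, whereas in CPM of all reads they were higher in every one (11.7 to 15.6 and 18.2 to 36.5). IDI1 was left out of a further sum after its values were seen, so that sum is a description. On the TMM scale the other 26 genes summed to 496.5 ± 57.6 CPM in NC and 727 ± 84.4 in Si-LIPG. This sum was higher in every Si-LIPG library. ACLY alone made up 81.3 ± 13.7 of it in NC and 160 ± 27.2 in Si-LIPG (SD, n = 3 each).

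The other SREBP targets were close to the limit of detection. STARD4, a carrier of cholesterol between membranes, was at 0 in all NC libraries and was counted 0, 13 and 4 times in Si-LIPG. On the TMM scale this was 2.44 times the floor of 3 counts over the NC group. LPIN1, a phosphatidate phosphatase on the way to triglyceride, was at 0 in all NC libraries. It was counted 2, 6 and 2 times in Si-LIPG, 1.43 times the same floor. Neither gene was above the floor without Si-LIPG 2. The floor covers counting error in NC only, and the Si-LIPG counts were taken as exact. The values are therefore not lower limits of the fold. In a fit with no filter on low counts the edgeR adjusted p was 0.389 for STARD4 and 0.520 for LPIN1.

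**Figure D4:**
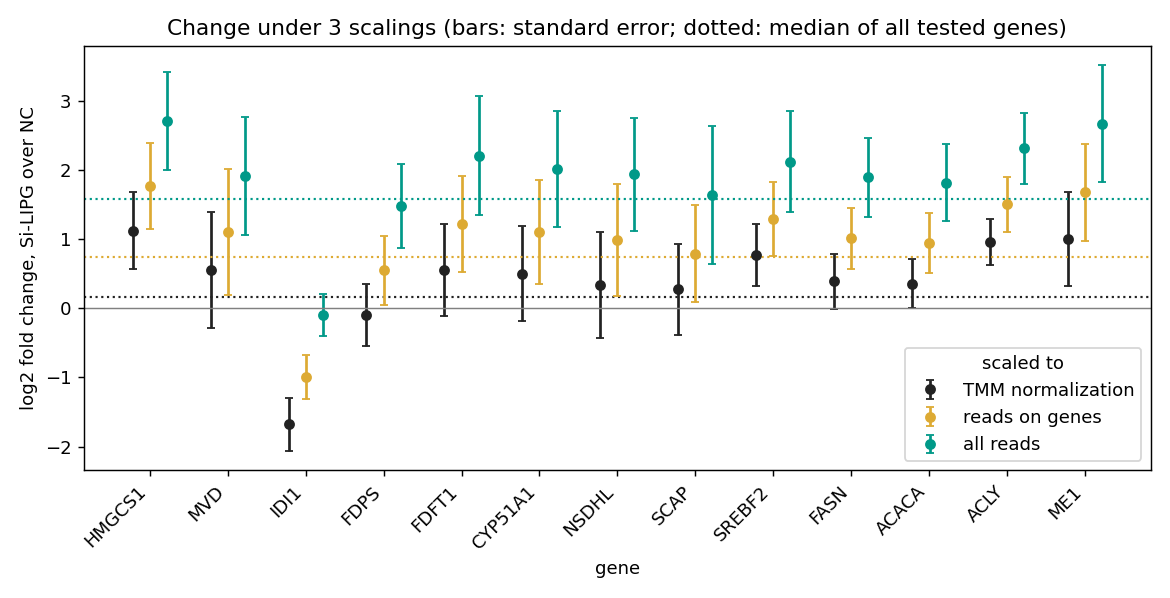
Log2 fold change of Si-LIPG against NC (vertical axis) for the 13 tested genes (horizontal axis), with bars for the standard error, scaled by TMM (black), by the reads on genes (yellow) and by all reads (green); the dotted lines are the medians of all tested genes (0.16, 0.74 and 1.58). IDI1 and FDPS are below the dotted line of their own colour under all 3 scalings, and the other 11 genes are above theirs.

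The scaling moved the other genes as a body. Scaled to all reads, 11 of the 13 genes met the criterion, all of them higher in Si-LIPG, against 46.1% of all tested genes, and 8 of the 13 had groups that did not overlap, against 53% of all tested genes. Of the 11, HMGCS1, MVD, FDFT1, CYP51A1, NSDHL, SREBF2 and ME1 were admitted by the count filter through Si-LIPG. The filter therefore shaped both counts, and they cannot be compared like with like with the shares of all genes.

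Levels of different genes were compared in FPKM, which is per length. In NC the order was IDI1 (108 ± 27.3 FPKM), FDPS (37.9 ± 13.1), ACLY (17.8 ± 6.53), FDFT1 (11.5 ± 7.64), HMGCS1 (8.50 ± 3.03) and CYP51A1 (8.46 ± 6.10; SD, n = 3 for each). IDI1 at 85.4 to 138 FPKM and FDPS at 24.1 to 50.1 were separate, ACLY (10.7 to 23.5) lay just under FDPS, and from ACLY down to FASN the ranges of neighbours in the order overlapped. In Si-LIPG FDPS (54.2 ± 16.5 FPKM), IDI1 (53.5 ± 4.12) and ACLY (50.1 ± 2.97) stood together at the top with overlapping ranges, followed by HMGCS1 (28.3 ± 8.65), whose highest library lay just under the lowest of FDPS. FASN, a long transcript, ranked 11th in NC and 12th in Si-LIPG, at 5.15 ± 1.77 and 10.3 ± 4.26 FPKM.

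Genes that work beside this set were described from lists of the same pathways. Of the 10 genes of SREBP cleavage and sterol-regulated degradation, 7 were tested. None of the 7 passed the adjusted threshold or the criterion on p and fold change. A log2 fold change above 0 was found for 6 of them, against 58.4% of all tested genes. The count filter bears on such counts in the lists as in the genes above. Of these 7, MBTPS1 and UFD1 were named after their values were seen. MBTPS1, the protease of the first SREBP cut, gave 0.40 (SE 0.34). UFD1, a subunit of the complex that extracts proteins from the membrane for degradation, gave 1.12 (SE 0.56). Of 8 genes of cholesterol trafficking, esterification and efflux that were tested, none passed either threshold and 6 were above 0. Of 7 tested genes of acetyl-CoA and NADPH supply none passed either threshold and 3 were above 0.

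In the isoprenoid branch, 3 of 13 listed genes were tested, and none passed the adjusted threshold. RABGGTA gave a log2 fold change of 1.45 (SE 0.97, edgeR adjusted p = 0.437) and DHDDS -0.38 (SE 0.30, edgeR adjusted p = 0.540), and neither met the criterion. PDSS1, a synthase of the side chain of ubiquinone, was counted 20, 15 and 30 times in NC and 21, 14 and 9 times in Si-LIPG. It met the criterion on unadjusted p and fold change, lower in Si-LIPG (log2 fold change -1.74, SE 0.62, edgeR adjusted p = 0.108), and its groups overlapped in CPM of all reads. Among 3 tested genes of electron supply and sterol partners, PGRMC1, a heme-binding membrane protein that binds cytochromes P450 of sterol synthesis, was counted 0, 2 and 4 times in NC and 28, 68 and 78 times in Si-LIPG. PGRMC1 passed the adjusted threshold, at 3.30 ± 3.16 CPM in NC and 47.99 ± 14.2 in Si-LIPG (SD, n = 3 each; edgeR adjusted p = 0.0395). It was named by its p and fold change, it came through the count filter by its Si-LIPG libraries, and with 6 NC reads in all the size of its fold is poorly fixed.

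Markers of other cell types were set beside these values. The 7 myogenic markers summed to 388 to 490 CPM in NC and 390 to 493 in Si-LIPG, with DES at 72 counts or more and MYH3 at 66 or more in each library, and none of the 4 tested passed either threshold. Within this list MYOD1 (20.9 ± 2.54 and 38.6 ± 16.9 CPM, SD, n = 3 each) and PAX7 (0, 0 and 4 counts in NC, 8, 12 and 22 in Si-LIPG) were above NC in every Si-LIPG library, and TNNT1 had a log2 fold change of -1.10 (edgeR adjusted p = 0.398). Endothelial markers summed to at most 7.21 CPM, with CDH5, KDR and TEK at 0, and immune markers to 23.6 to 48.6 CPM in NC and 16.3 to 22.6 in Si-LIPG, with PTPRC and CD3E at 0. Of the 10 tested stromal markers, 8 had a log2 fold change above 0, against 58.4% of all tested genes. LUM was the 1 past the adjusted threshold (log2 fold change 1.71, edgeR adjusted p = 0.0395), against 0.974% of all tested genes called higher. LUM was counted 6, 14 and 26 times in NC and 68, 133 and 144 times in Si-LIPG. Like PGRMC1, it came through the count filter by its Si-LIPG libraries. DCN met the criterion on unadjusted p and fold change on the higher side (0.87, edgeR adjusted p = 0.228), and ENG met it on the lower side, below NC in every Si-LIPG library in TMM-normalized CPM (-1.07, edgeR adjusted p = 0.0844) but above NC in every one in CPM of all reads. The part of these differences in the values of the sterol and lipogenic genes was not tested.

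Neighbouring genes matter where strand is uncertain. Of the 24 genes placed once by symbol in RefSeq's ARS1.2 assembly, 8 had another gene overlapping or within 1 kb. The tested ones were MVD, FDPS (beside RUSC1 and RUSC1-AS1), SCAP (beside PTPN23), SREBF2 (which holds MIR33A) and ACACA (overlapped by C19H17orf78 and LOC106503185 and beside TADA2A). RUSC1 was counted 13, 10 and 0 times in NC and 14, 11 and 21 times in Si-LIPG, and PTPN23 54, 70 and 76 times and 55, 119 and 71 times. Whether reads of these neighbours are in the counts of FDPS and SCAP was not tested.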

How the data were processed

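Poly(A) RNA was sequenced in 6 strand-keeping (dUTP) libraries. The submitters' processing notes name fastp, HISAT2, SAMtools and HTSeq; versions, genome build, annotation and strand setting are not given in the sources used here, so no coordinates are printed. The authors deposited raw read counts per gene, 1 table per library, and FPKM values in 1 table of all libraries. The FPKM matched count, length and reads on genes within 0.1 percent for 100% of values. Length here was the median worked out from the same counts and FPKM, so the lengths themselves were not checked. The 5 rows that name no gene held 97.1% to 99% of reads and entered neither the library sizes nor the tests.

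Genes were filtered with filterByExpr, normalized by TMM and tested with edgeR 4.0.16 (quasi-likelihood test, Benjamini-Hochberg adjustment over 6574 genes, common biological coefficient of variation 40.5%) in R 4.3.3, after the code was tested on simulated data. The prior count for fold changes was 2. DESeq2 1.42.0 and limma 3.58.1 (on log2(FPKM + 1) and log2(FPKM + 0.1)), other scalings, filters, covariates and leaving out each library were alternatives. Libraries of a group differed by more than counting noise (chi-square per degree of freedom 4.21 to 12.5), so none was counted as a duplicate. All 27 genes are accounted for; per-library values are given for genes past either threshold, the main control and rate-setting genes and those whose direction depends on scaling, and from the pathway lists for up to 3 genes per list at unadjusted p under 0.05 and fold change over 1.5. The genes and lists were chosen with earlier results of these data known.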

Additional observations from a re-analysis of the deposited data

How the results depend on the processing

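With TMM, 1 gene (IDI1) had an adjusted p under 0.05 and 2 (IDI1 and ACLY) an unadjusted p under 0.05 with a fold change over 1.5, and DESeq2 size factors and upper quartile factors gave the same counts. Scaling to the reads on genes gave 0 and 7 of 13, against 1.87% and 30.2% of all genes tested in that fit, and scaling to all reads 2 (HMGCS1 and ACLY, both higher) and 11, against 11.4% and 46.1%. Since 8 of the 13 genes came through the count filter by their Si-LIPG libraries, these counts cannot be compared like with like with those shares. The DESeq2 test gave 1 and 3 of 27 (4.01% and 11.4% of all), and no filter on low counts 1 and 3 (4.2% and 13.8%), with SC5D added to the second count in both. Requiring at least 10 counts in every library left 5 of the genes, of which 2 passed each threshold (IDI1 and ACLY), against 25.9% and 38.7% of the 2757 genes in that fit. The percentage of reads on genes as covariate gave 0 and 1 (ACLY; 2.84% of all), limma on log2(FPKM + 1) 0 and 4 (29.1%), and limma on log2(FPKM + 0.1) 0 and 3 (25.4%); over all genes these 3 fits called 0, with 187, 1912 and 1671 at an unadjusted p under 0.05. Leaving out 1 library gave 0 to 1 and 1 to 3. Over all genes, 0 were called without NC 1, NC 2, Si-LIPG 2 or Si-LIPG 3 (1307, 1616, 888 and 871 at an unadjusted p under 0.05), 525 without NC 3 and 648 without Si-LIPG 1. The causes of these differences were not tested.

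Same-numbered libraries correlated at 0.21, 0.0639 and 0.105, so the replicate numbers were not taken as pairs. With the replicate number as a block, 2 genes (IDI1 and ACLY) passed both thresholds. In that fit 925 of all tested genes (14.1%) were called, against 428 without the block, and 1550 (23.6%) met the criterion on unadjusted p and fold change.

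The direction of FDPS, -0.10 on the log2 scale with TMM, was 0.55 on the reads on genes, 1.48 on all reads, 0.0040 with no filter, 0.20 with at least 10 counts, 0.23 with the percentage of reads on genes as covariate, 0.52 and 0.53 with limma (pseudocounts 1 and 0.1), and -0.41 to 0.14 when 1 library was left out (above 0 without NC 1 and NC 2, at 0.14 and 0.0070). SCAP turned to -1.625 with that covariate and ranged from -0.35 to 1.05 when 1 library was left out (-0.20 without NC 1, -0.35 without Si-LIPG 3, 1.05 without NC 2), SREBF2 to -0.0133 with that covariate, and NSDHL ranged from -0.12 (without NC 3) to 0.74 (without NC 1). The other tested genes kept their direction in every fit in which they were fitted. Depth limits the genes with few reads: MVD had a mean of 9.33 counts, and the 14 untested genes had 1 to 64 counts in all over the 6 libraries.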
